A study of Mus musculus with 35 samples.

Results

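The cells described here are mural cells, the pericytes and smooth muscle cells that wrap blood vessels, from plate 4 of a single-cell RNA-seq experiment on E14.5 mouse brain. Plate 4 is labelled *Mof* Knockout and was sequenced as 4 libraries. Its sort gates are empty in the deposited tables, so its mural cells were picked by transcripts alone. A well with over 1500 transcripts was taken as mural when the sum of *Rgs5*, *Pdgfrb*, *Vtn* and *Kcnj8* was the largest of 4 marker sums, the others being endothelial (*Kdr*, *Cldn5*, *Cd93*, *Cdh5*), microglial (*C1qa*, *C1qb*, *Ctss*, *Csf1r*) and neural (*Sox2*, *Fabp7*, *Tubb3*, *Stmn2*). This gave 275 of the 337 wells of plate 4 that passed the depth minimum, and 1591 wells passed it in the whole series. They were compared with 184 of 200 wells of the PDGFRβ-high gate of plates 1 and 2, picked by the same rule; the labels write the gate as Pdgrb_high. Plates 1 and 2 are wild type by the series' design and carry no genotype label of their own. No treatment or strain is named for either group, and both are of the same embryonic day. The labels name neither the *Mof* allele nor a Cre line, so which cells lost the gene, and when, is not given in the sources used here. Genotype and plate cannot be told apart, because every knockout well compared here is on plate 4. The sort gate differs along with them, since wild-type wells passed the PDGFRβ-high gate and no gate is known for plate 4.

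Mural cells share the vessel's basement membrane with the endothelium and depend on PDGFRβ signalling to be recruited to it. Pericytes of the capillary bed normally carry few contractile proteins, while smooth muscle cells of arterioles express smooth muscle actin and its partners. MOF, encoded by *Kat8*, acetylates histone H4 and works in the MSL and NSL complexes, which bind active genes. NF-kappaB is a family of transcription factors held in the cytoplasm by inhibitors such as the product of *Nfkbia*, itself a gene that NF-kappaB switches on.

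Few picked wells lay near the edge of the marker rule. The mural sum is the largest in them by the rule itself, so the sums are a description. The median mural sum was 77.3 transcripts in plate 4 and 74.9 in the wild type, against 2 for the second largest sum in both. On plate 4 the well just inside the rule had 4 mural transcripts and 0 of any other kind, and the well just outside had 0 against 1. In the wild type the well just inside had 4 against 3. By library, plate 4 gave 77, 70, 69 and 59 mural wells, and all 62 wells that were not picked had the neural sum as the largest. The wild-type wells came from 4 libraries, numbered 1 and 2 on plate 1 (62 and 19 wells) and 5 and 6 on plate 2 (76 and 27 wells). Within plate 4 the levels of the 4 mural markers in counts per 1000000 transcripts of the library's mural wells (CPM) were 6421 to 7758 for *Rgs5*, 1448 to 1802 for *Vtn*, 668 to 743 for *Pdgfrb* and 569 to 698 for *Kcnj8*. Wild-type libraries held 7083 to 7991, 1738 to 2267, 509 to 617 and 516 to 724 CPM. These genes chose the wells, so their levels are a description.

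The mural wells of a library were summed before any test, giving 157095 to 634781 transcripts per library. The library is the replicate here. The study states that its wild-type cells came from several independent brains, but which plate holds which brain, and how many brains plate 4 holds, is not given in the sources used here. So p-values measure only the spread between libraries, which may be technical within a plate. The median well held 6909, 7764, 8251 and 7576 transcripts in the plate 4 libraries and 5418, 6822, 8369 and 6916 in the wild type. These medians overlapped (exact permutation test over libraries, two-sided, p = 0.343, n = 4 against 4, where the smallest p possible is 0.0286). At 1500 transcripts per well, plate 4 wells showed a median of 875 to 889 genes and wild-type wells 850.0 to 884 (exact permutation p = 0.171). The share of transcripts from the mitochondrial genome was 13.05%, 14.6%, 12.98% and 13.03% on plate 4 and 14.97%, 17.0%, 14.1% and 17.2% in the wild type (difference -2.39 percentage points, exact permutation p = 0.0571). No 2 libraries held a well with identical counts. Of 459 mural wells, 418 use a barcode that also marks a mural well in another library, because all plates carry the same set.

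The groups also differ in sex. *Xist*, the RNA that coats the inactive X chromosome of female cells, stood at 80.3, 112, 0 and 121 CPM in the plate 4 libraries and at 298, 350.2, 350.3 and 233 CPM in the wild type. *Ddx3y*, a Y-linked RNA helicase, stood at 68.1, 88.1, 80.4 and 57.4 CPM on plate 4 and at 0 in all wild-type libraries. On plate 4, 118 wells held a Y-linked transcript and no *Xist*, 49 held *Xist* alone, 10 held both and 98 neither. In the wild type 122 wells held *Xist* alone, 0 held a Y-linked transcript alone and 3 held both. Library 3 of plate 4 stood apart, with Y-linked transcripts in 36 of 69 wells and *Xist* in 0. Plate 4 thus held cells of both sexes and the wild-type mural gate mostly *Xist*-positive ones. The comparison was therefore repeated on the wells with *Xist* and no Y-linked transcript, with values given below.

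**Figure D1:**
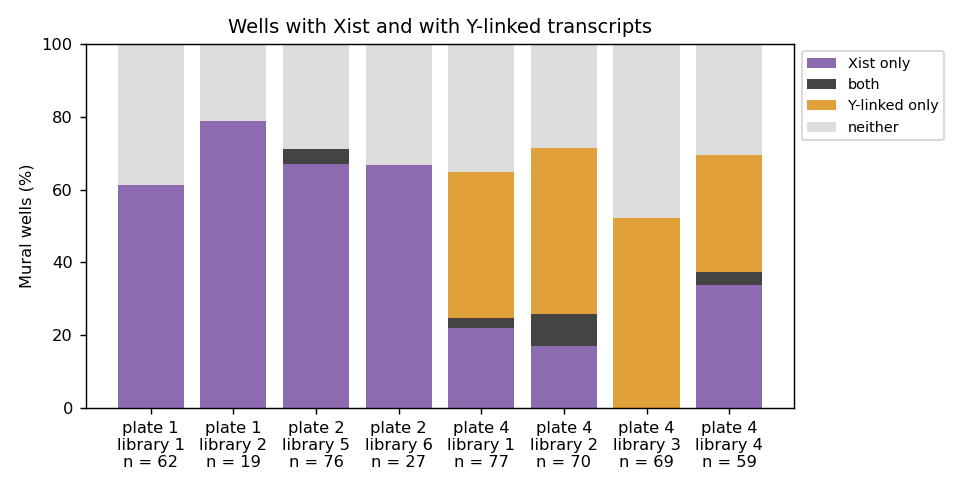
Share of mural wells (%, vertical axis) in each library that hold *Xist* only, Y-linked transcripts only, both or neither, with plates 1 and 2 (wild type) at the left and plate 4 (*Mof* knockout) at the right. All 4 wild-type libraries lack wells with Y-linked transcripts alone, and library 3 of plate 4 has 0 wells with *Xist*.

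*Kat8* itself was at a low level in both groups. It stood at 8.72, 20.7, 14.2 and 15.4 CPM on plate 4 and at 12.7, 6.37, 18.9 and 15.9 CPM in the wild type, from 33 and 21 transcripts in all. The groups overlapped, with a log2 difference of -0.05 ± 0.44 (SE) and an adjusted p of 0.986 in edgeR's quasi-likelihood test. At least 1 *Kat8* transcript was found in 30 of 275 wells of plate 4 (10.9%) and in 17 of 184 wild-type wells (9.24%). mCEL-Seq2 counts tags at the 3′ end of a transcript, which may lie outside the part of the gene that was deleted, so these values check neither the label nor the loss of the protein. Of 10 other genes of the MSL and NSL complexes that were tested, 0 passed the test in either direction, and their median log2 difference was 0.10. *Msl1*, the scaffold of the MSL complex, had 129.5 to 153 CPM on plate 4 and 58.3 to 178 CPM in the wild type. *Hcfc1*, a subunit of the NSL complex, had 99.3 to 161 and 119.9 to 166 CPM.

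Across all genes few differences passed the test. Of 6754 genes tested with edgeR, 25 (0.37%) were higher on plate 4 and 23 (0.341%) lower at an adjusted p under 0.05, or 48 (0.711%) in all. An unadjusted p under 0.05 was found for 751 genes (11.1%). The median log2 difference was 0.00. In 241 genes (3.57%) every plate 4 library lay above every wild-type library, and in 160 (2.37%) below. The same test between the wild-type plates called 2 genes higher on plate 2 (0.0411%), *Lars2* and *Gm42418*, and 0 lower, with 180 of 4867 genes (3.7%) at an unadjusted p under 0.05. DESeq2 gave the same 2 and 0. That test had 2 libraries against 2, so its counts and those of plate 4 are not on an equal footing. *Lars2* was also among the genes lower on plate 4, but plate 4, at 232 to 534 CPM, overlapped plate 1, at 441 and 395 CPM, and lay below plate 2 alone, at 1993 and 1601 CPM.

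**Figure D2:**
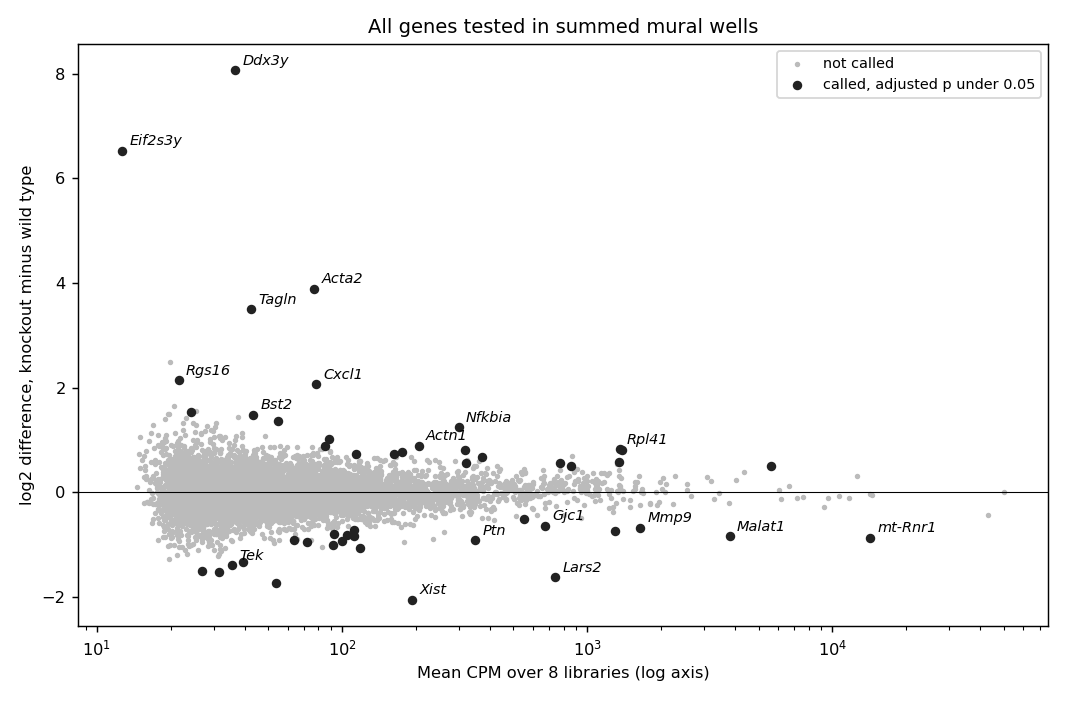
Log2 difference between plate 4 (*Mof* knockout) and wild type (vertical axis) against mean CPM over the 8 libraries (horizontal log axis) for the 6754 genes tested. Black points are the 48 genes called, with *Acta2* and *Tagln* highest among the autosomal genes and the Y-linked *Ddx3y* and *Eif2s3y* above them.

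The 2 largest autosomal differences among the called genes were in contractile genes, and *Nfkbia* and *Cxcl1*, both targets of NF-kappaB, had the smallest adjusted p-values of the other autosomal genes. The 250 bases upstream of the start of *Acta2*, *Nfkbia* and *Cxcl1* are shown, with those of *Cnn2*, the 1 higher gene whose window holds an exact CArG box, because the motifs in them belong to the factors that act on such genes: the kappaB site, which NF-kappaB binds, and the CArG box, which serum response factor binds in smooth muscle genes. A box with a single G or C within its A/T core was counted separately as CArG-like. The motif set was chosen after the values were seen. Both strands were searched, capitals mark the matches, and each window is given 5′ to 3′ on the gene's strand from RefSeq for GRCm38.p6. The windows are chr5:90890995-90891244 (plus strand) for *Cxcl1*, chr12:55492648-55492897 (minus strand) for *Nfkbia*, chr19:34255374-34255623 (minus strand) for *Acta2* and chr10:79988350-79988599 (plus strand) for *Cnn2*. RefSeq and GENCODE place some starts differently, so 217 of the 250 bases shown for *Acta2*, with both marked boxes, lie within the gene as GENCODE draws it, against 16 for *Cnn2*, 4 for *Cxcl1* and 0 for *Nfkbia*.
Cxcl1: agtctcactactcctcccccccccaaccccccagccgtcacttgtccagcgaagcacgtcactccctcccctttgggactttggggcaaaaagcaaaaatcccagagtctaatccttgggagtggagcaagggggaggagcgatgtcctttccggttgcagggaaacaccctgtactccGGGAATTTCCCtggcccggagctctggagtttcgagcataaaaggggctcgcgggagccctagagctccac
Nfkbia: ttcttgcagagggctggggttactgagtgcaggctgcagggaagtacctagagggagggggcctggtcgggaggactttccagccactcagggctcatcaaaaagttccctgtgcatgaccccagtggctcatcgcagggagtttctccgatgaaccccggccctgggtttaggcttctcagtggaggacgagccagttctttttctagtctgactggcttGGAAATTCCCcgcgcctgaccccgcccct
Acta2: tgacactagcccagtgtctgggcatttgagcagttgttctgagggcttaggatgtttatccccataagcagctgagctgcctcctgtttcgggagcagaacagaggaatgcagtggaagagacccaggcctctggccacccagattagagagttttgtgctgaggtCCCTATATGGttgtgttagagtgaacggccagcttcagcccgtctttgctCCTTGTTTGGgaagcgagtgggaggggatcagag
Cnn2: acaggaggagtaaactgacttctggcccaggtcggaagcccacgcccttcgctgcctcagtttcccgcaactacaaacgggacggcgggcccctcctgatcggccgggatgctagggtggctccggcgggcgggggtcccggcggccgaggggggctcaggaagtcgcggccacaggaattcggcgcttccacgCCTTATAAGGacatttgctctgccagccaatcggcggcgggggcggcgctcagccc

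*Cxcl1* holds 2 overlapping kappaB matches, the first starting 71 bases before the gene's start, and *Nfkbia* holds 1 that starts 29 bases before. *Acta2* has 0 exact CArG boxes in this window and 2 CArG-like ones, 84 and 34 bases before the start, while *Cnn2* has an exact box 56 bases before. Among the 19 genes higher on plate 4 with a window, 4 held a kappaB match (*Cxcl1*, *Nfkbia*, *Ptms* and *Bst2*), 1 a CArG box and 1 a CArG-like box. Among the 13 lower genes with a window the numbers were 0, 0 and 1. Over 32851 windows of the same length in the table, 3.90% held a kappaB match, 1.47% a CArG box and 7.24% a CArG-like box. Over the 6530 windows of genes tested here the shares were 4.56%, 1.33% and 6.36%. A match is a run of letters and not a shown binding site. *Tagln* has no window here.

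*Acta2*, which encodes smooth muscle alpha-actin (ENSMUSG00000035783, chr19:34241090-34255590), showed the largest of these differences. It stood at 120.4, 76.0, 263 and 117 CPM in the plate 4 libraries and at 12.7, 19.1, 7.89 and 0 CPM in the wild type. The groups did not overlap, and the log2 difference was 3.89 ± 0.41 (SE), or 14.8-fold (adjusted p = 5.00e-08). *Tagln*, which encodes the actin-binding protein transgelin (chr9:45929619-45936058), stood at 62.8, 29.4, 115 and 108 CPM on plate 4. Its wild-type libraries held 15.3, 0, 3.16 and 5.30 CPM, with a log2 difference of 3.50 ± 0.48 and an adjusted p of 1.41e-05. Both genes were called against plate 1 alone (log2 3.31 and 2.83) and against plate 2 alone (4.50 and 4.29). Over 17 alternative settings *Acta2* was called in 17, with a log2 difference of at least 2.72, and *Tagln* in 15, with one of at least 2.07 and an adjusted p of up to 0.432. The 2 settings in which *Tagln* was not called kept only libraries 1 and 2 of plates 4 and 1, with and without the library number as a block. Fewer cells of a type and less RNA per cell cannot be told apart in such sums, so the same genes were counted well by well.

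In single wells the *Acta2* difference came from a minority of cells. At least 1 *Acta2* transcript was found in 51 of 275 plate 4 wells, or 18.5% (exact 95% interval 14.1 to 23.7), and in 9 of 184 wild-type wells, or 4.89% (2.26 to 9.08). The highest plate 4 well held 68 transcripts, the highest wild-type well 3, and the 10 richest wells of plate 4 held 73.9% of its *Acta2*. Wells of plate 4 whose largest sum was neural serve as the background for such shares, and where their *Acta2* transcripts came from was not tested. The 62 neural-picked wells of plate 4, which should lack the gene, held it in 11.3% (4.66 to 21.9) at a median depth of 9262 transcripts, against 7746 for the mural wells of plate 4 and 6936 for those of the wild type. After thinning to 1500 transcripts the shares were 6.55% of plate 4 mural wells, 1.09% of wild-type wells and 3.23% of neural-picked wells. None of the neural-picked wells held more than 4 *Acta2* transcripts. *Tagln* was found in 19.3% of plate 4 mural wells, 4.35% of wild-type wells and 14.52% of neural-picked wells. After thinning its shares were 9.09%, 1.09% and 3.23%. Shares of wells with a single transcript of either gene are therefore read beside this background and not on their own. All intervals cover counting error only.

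Wells with 5 or more *Acta2* and *Tagln* transcripts together numbered 22 of 275 on plate 4 (5, 3, 6 and 8 by library) and 0 of 184 in the wild type, which allows a share of up to 1.63%. Only the wild-type wells had to pass the PDGFRβ-high gate, and whether the gate kept such wells out was not tested. The neural-picked wells had 0 of 62, with 4 as their highest sum. The 22 wells were also deeper, with a median of 10224 transcripts against 7610 in the other plate 4 mural wells and 6936 in the wild type, and the threshold is not scaled to depth. The threshold was set after the values were seen, so what follows describes these wells and tests nothing. Their other contractile transcripts were also high. *Myl9*, a regulatory myosin light chain, stood at 1953 CPM in the 22 wells and 797 CPM in the other 253 plate 4 wells. *Tpm1*, a tropomyosin, stood at 675 against 221 CPM and *Actn1*, the actin cross-linker alpha-actinin, at 520.5 against 238 CPM. *Des*, the muscle intermediate filament desmin, stood at 106 against 53.2 CPM. *Myh11*, the smooth muscle myosin heavy chain, had only 3 transcripts in these wells, and *Cnn1*, calponin of mature smooth muscle, had 0. *Mmp9*, a matrix metalloproteinase, was low in the 22 wells at 215 against 1406 CPM, and *Ptn* stood at 114 against 254 CPM. The pericyte gene *Abcc9* stood lower as well, at 757 against 1141 CPM, with 1369 CPM in the wild-type wells. *Kcnj8* stood at 472 against 654 CPM, *Pdgfrb* at 569 against 727 CPM and *Rgs5* at 6252 against 6985 CPM. They are genes of the marker rule, so their levels are a description. The wild-type wells held 653, 594 and 7239 CPM of them. The remaining 253 wells held 20.1 CPM of *Acta2* and 20.1 CPM of *Tagln*, close to the 16.8 and 23.5 CPM of the neural-picked wells of the same plate, with 9.48 and 6.56 CPM in the wild-type wells.

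**Figure D3:**
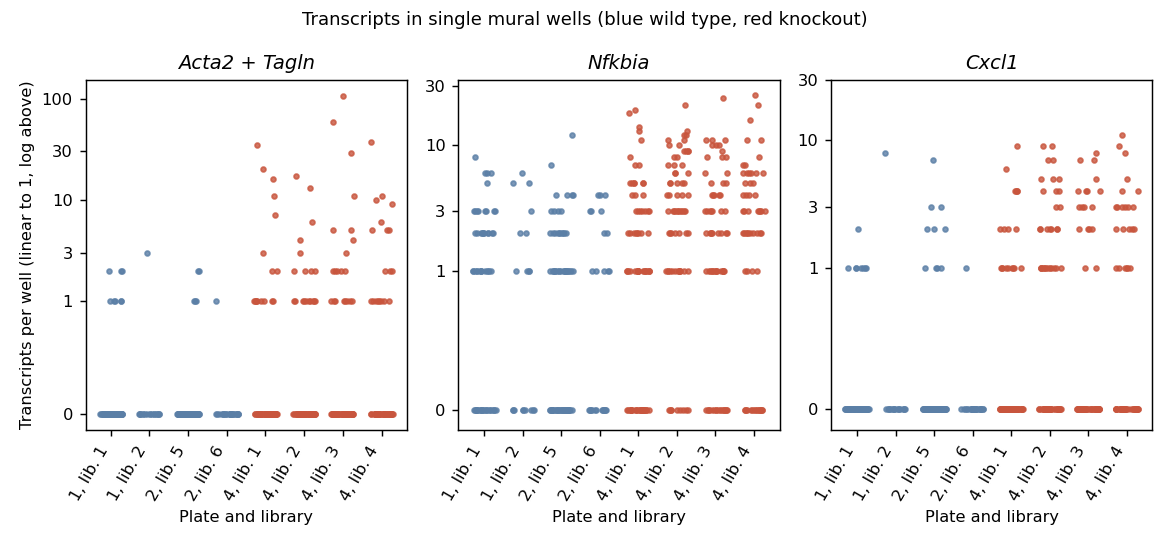
Transcripts per well (vertical axis, linear up to 1 and logarithmic above) of *Acta2* plus *Tagln*, *Nfkbia* and *Cxcl1* in each mural well, by plate and library, with wild type in blue and plate 4 in red. A few wells in every plate 4 library hold 5 or more *Acta2* and *Tagln* transcripts and 0 wild-type wells do, while *Nfkbia* is spread over many wells.

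The smooth muscle contractile list held 17 genes, of which 11 were tested. Of these, 2 were called higher (*Acta2* and *Tagln*) and 0 lower. A positive difference was found for 10, with a median log2 difference of 0.64 against 0.00 over all genes tested, and 3 had all plate 4 libraries above all wild-type libraries. Over all genes tested 0.37% were called higher, 50.3% were positive and 3.57% had all plate 4 libraries above. *Tpm1* stood at 209 to 326 CPM on plate 4 and 143 to 229 CPM in the wild type, with a log2 difference of 0.61 and an adjusted p of 0.0733. *Des* had 33.2 to 75.0 and 21.2 to 41.0 CPM (log2 0.82, adjusted p = 0.200). *Mylk*, the myosin light chain kinase, had 646 to 766 and 583 to 795 CPM and a log2 difference of -0.01. Called genes outside the list include *Actn1*, which stood at 295, 250.4, 268 and 260.3 CPM on plate 4 and at 155, 146, 137 and 133 CPM in the wild type (log2 0.89 ± 0.15, adjusted p = 3.96e-04). *Cnn2*, a calponin found beyond smooth muscle, stood at 959.7 to 1036 CPM against 649.9 to 748 CPM (log2 0.50, adjusted p = 0.0288, called in 7 of 20 settings). *Loxl2*, a lysyl oxidase that cross-links collagen, stood at 128 to 165 against 63.6 to 99.4 CPM (log2 0.72, adjusted p = 0.0497), which was called in 2 of the 20 alternative settings it was fitted under. With the 22 contractile wells left out, *Actn1* was still called (adjusted p = 0.0169), and 16 genes were higher and 15 lower in all.

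*Nfkbia* and *Cxcl1* led the second group. *Nfkbia*, which encodes the inhibitor IκBα (ENSMUSG00000021025, chr12:55489410-55492647), stood at 340.3, 511, 348 and 488 CPM on plate 4 and at 232, 172, 139 and 159 CPM in the wild type. Each plate 4 library lay above each wild-type library, with a log2 difference of 1.25 ± 0.17, or 2.37-fold (adjusted p = 1.19e-05). *Cxcl1*, which encodes a chemokine that draws neutrophils (chr5:90891241-90893115), stood at 83.8, 159, 102 and 165 CPM on plate 4 and at 22.9, 50.9, 36.3 and 5.30 CPM in the wild type (log2 2.07 ± 0.29, 4.19-fold, adjusted p = 1.45e-05). Here too the groups did not overlap. Unlike *Acta2*, *Nfkbia* was spread over many wells, and *Cxcl1* was found in fewer wells than *Nfkbia*. *Nfkbia* was found in 75.3% of plate 4 mural wells and 55.4% of wild-type wells, and after thinning in 40.0% and 23.9%, against 41.9% and, after thinning, 4.84% of the deeper neural-picked wells of plate 4. *Cxcl1* was found in 33.5% and 10.9% of mural wells and in 3.23% of neural-picked wells.

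Both genes also passed the test with the sex-linked pattern held alike. With only wells that held *Xist* and no Y-linked transcript, 49 on plate 4 and 122 in the wild type, 2654 genes could be tested, and 2 were called higher and 1 lower. The higher ones were *Nfkbia* (log2 1.56, adjusted p = 6.13e-05) and *Cxcl1* (log2 2.03, adjusted p = 0.0445). The lower one was *mt-Nd4l* (log2 -0.94, adjusted p = 0.0445). Library 3 of plate 4 has no such wells and drops out. Of the genes called with all wells, 36 could be fitted here and 36 kept their sign, but only 3 were called. The difference was smaller by over 1.5 times in 8 of the 36, among them *mt-Rnr1* (log2 -0.50, adjusted p = 0.605), *Ptn* (-0.28, 0.793), *Sparcl1* (-0.02, 0.994), *Ash1l* (-0.30, 0.846), *Cnn2* (0.25, 0.777) and *Loxl2* (0.37, 0.793). In others the difference moved by less than that and the call was lost, as for *Actn1* (log2 0.64, adjusted p = 0.410), *Mmp9* (-0.51, 0.428), *Gjc1* (-0.57, 0.382), *Malat1* (-0.80, 0.0782) and *Rpl41* (0.80, 0.0648). This subset holds fewer wells and is also closer in sex, and which of these lies behind a lost call was not tested. *Acta2* was below the filter in this subset. It stood at 86.8 CPM in the plate 4 wells (22.9, 0 and 188 CPM in libraries 1, 2 and 4) and at 12.8 CPM in the wild-type wells. *Tagln* was also below the filter and stood at 84.2 CPM (7.64, 52.2 and 163 CPM in the same libraries) against 5.89 CPM.

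Of 20 genes in the NF-kappaB and inflammation list, 8 were tested, 2 were called higher and 0 lower. The median log2 difference was 0.99, and 7 of the 8 were positive. Over all genes tested 0.37% were called higher and 50.3% were positive. *Icam1*, an adhesion receptor for leukocytes, had 25.2 to 57.4 CPM on plate 4 and 5.10 to 25.5 CPM in the wild type (log2 1.55, adjusted p = 0.0686). *Nfkb2*, the p100 subunit, had 22.7 to 59.9 and 5.30 to 44.6 CPM (log2 1.18, adjusted p = 0.173). *Tnfaip3*, which encodes the NF-kappaB brake A20, had a log2 difference of 0.81 (adjusted p = 0.245), and *Sod2*, mitochondrial superoxide dismutase, had one of -0.00. *Lcn2* and *Ccl7*, an acute-phase protein and a chemokine, were at 0 in every library, and the cytokine *Il6* and the receptor *Tlr2* were at no more than 1.73 CPM in any. The list stood at a summed 783 to 1039 CPM on plate 4 and 334 to 490.3 CPM in the wild type. The called *Nfkbia* and *Cxcl1* are part of these sums.

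Interferon-linked genes gave 1 call. *Bst2*, which encodes the antiviral membrane protein tetherin, stood at 73.3, 44.9, 53.6 and 77.2 CPM on plate 4 and at 38.2, 44.6, 9.47 and 5.30 CPM in the wild type (log2 1.48 ± 0.35, adjusted p = 0.0269). The wild-type plates differ in level, and against plate 1 alone the log2 difference was 0.62 (adjusted p = 0.638), against plate 2 alone 2.78 (adjusted p = 2.83e-04). Of 10 tested genes in the list, 8 were positive, with a median of 0.42. Among all genes tested 50.3% were positive and 0.37% were called higher. *Isg15*, a ubiquitin-like interferon product, had 32.8 to 97.1 CPM on plate 4 and 5.30 to 40.8 CPM in the wild type (log2 1.43, adjusted p = 0.0806). *Ifitm3*, an endosomal antiviral protein, had 289.7 to 547 and 167 to 331 CPM (log2 0.62, adjusted p = 0.0878). *B2m*, the light chain of MHC class I, had a log2 difference of -0.01.

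Genes that respond to tissue handling gave no calls. Of 20 immediate early and dissociation genes, which rise within minutes of tissue handling, 19 were tested and 0 called, with a median log2 difference of 0.04. *Fos* stood at 963 to 1421 CPM on plate 4 and 1071 to 1644 CPM in the wild type, and *Jun* at 1268 to 1681 and 1309.7 to 1988 CPM. *Fosb* was the member nearest to a call, at 199 to 258 against 115 to 207 CPM (log2 0.60, adjusted p = 0.0798). Cells other than mural could also carry NF-kappaB targets, so their markers are given here. The 12 microglia genes other than those of the rule summed to 34.5 to 47.3 CPM there and to 17.8 to 217 CPM in the wild type, where library 2 of plate 1 and library 6 of plate 2 were high, and *Lyz2* was at 0 everywhere. The 14 further endothelial genes summed to 534 to 562 CPM on plate 4 and 573 to 652 CPM in the wild type. The part of such cells in the *Nfkbia* and *Cxcl1* differences was not tested. Erythroid genes summed to at most 6.91 CPM in any library, with 7 of 10 at 0.

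**Figure D4:**
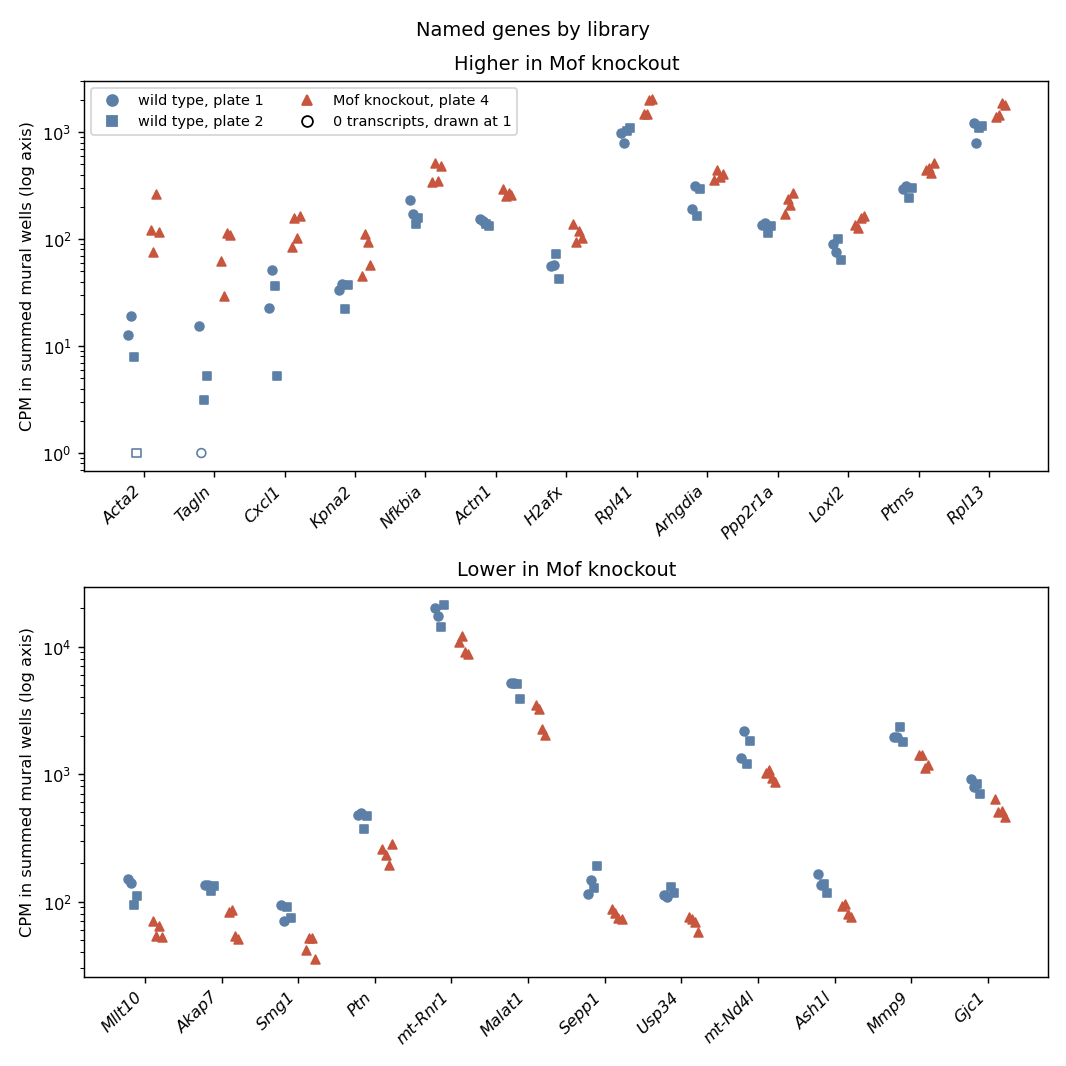
CPM in the summed mural wells (log axis) of each library for the genes named by rule, higher on plate 4 in the upper panel and lower in the lower panel. Circles and squares are wild-type plates 1 and 2, triangles are plate 4 libraries, and open symbols mark 0 transcripts, drawn at 1.

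Other genes higher on plate 4 had smaller differences. *Kpna2*, an importin that carries proteins into the nucleus, stood at 45.4, 111, 94.5 and 57.4 CPM on plate 4 and at 33.1, 38.2, 22.1 and 37.1 CPM in the wild type (log2 1.37 ± 0.30, adjusted p = 0.0130), and was called in 11 of 18 settings. *H2afx*, the histone variant of DNA damage foci, stood at 93.3 to 138 against 42.4 to 72.6 CPM (log2 0.88, adjusted p = 0.0288), and was called in 7 of 19 settings. *Arhgdia*, an inhibitor of small GTPases, stood at 356 to 439 against 164 to 312 CPM (log2 0.81, adjusted p = 0.00499). In all of these the groups did not overlap. *Ppp2r1a*, the scaffold subunit of protein phosphatase 2A, had a log2 difference of 0.77 (adjusted p = 0.0139, called in 9 of 20 settings), and *Ptms*, the small nuclear protein parathymosin, one of 0.68 (adjusted p = 0.00525). *Rgs16*, a regulator of G protein signalling, was called as well (34.7 against 8.46 CPM on average, log2 2.14, adjusted p = 0.0139), and in 9 of 15 settings. Against plate 1 alone its log2 difference was 1.42 (adjusted p = 0.359), and against plate 2 alone 3.07 (adjusted p = 0.00899). On plate 4, 16.1% of neural-picked wells held it against 14.9% of mural wells, and after thinning 1.61% against 4.36%. Whether neural cells make *Rgs16* was not tested, so these shares are given as values only.

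Ribosomal protein genes gave 2 calls, both higher. Of 72 tested genes for cytosolic ribosomal proteins, 64 had a positive difference (50.3% of all genes tested had one), 2 were called higher (0.37% of all genes) and 8 had all plate 4 libraries above all wild-type ones (3.57% of all genes), with a median log2 difference of 0.16. *Rpl41* stood at 1483, 1463, 1979 and 2052 CPM on plate 4 and at 984, 783, 1019 and 1092 CPM in the wild type (log2 0.82 ± 0.13, adjusted p = 2.17e-04). *Rpl13* stood at 1377 to 1891 against 783 to 1226 CPM (log2 0.59, adjusted p = 0.0217). Both have many near-identical pseudogene copies in the genome, so how their reads were assigned can move these values. The 73 tested nuclear genes of the respiratory chain had a median of 0.03 and 0 calls. Glycolysis and hypoxia genes had 14 of 15 positive, a median of 0.28 and 0 calls, with *Gapdh* at 1004 to 1143 against 674 to 981 CPM (log2 0.38, adjusted p = 0.161).

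The list of secreted signals of mural cells had 9 tested genes and 1 call, *Ptn*, with a median log2 difference of 0.02. *Ptn*, which encodes the growth factor pleiotrophin (ENSMUSG00000029838, chr6:36714929-36810220), stood at 260.0, 233, 192.2 and 282 CPM on plate 4 and at 479, 497, 374 and 472 CPM in the wild type. All plate 4 libraries lay below all wild-type libraries, with a log2 difference of -0.91 ± 0.14 (adjusted p = 9.87e-05). *Ptn* was found in 67.6% of plate 4 wells and 85.3% of wild-type wells, and in 83.9% of the neural-picked wells, whose cell type also makes it. Among wells with *Xist* and no Y-linked transcript its log2 difference was only -0.28 (adjusted p = 0.793), from 355 against 416 CPM. *Mmp9* stood at 1406, 1404, 1109 and 1176 CPM on plate 4 and at 1937, 1949, 2340.1 and 1792 CPM in the wild type (log2 -0.68 ± 0.12, adjusted p = 9.90e-04), though 10 wild-type wells of plate 3, outside the test, held 1199.5 CPM. *Gjc1*, which encodes connexin 45 of gap junctions, stood at 642, 508, 515 and 457 against 918, 796, 833 and 699.8 CPM (log2 -0.64 ± 0.13, adjusted p = 0.00518). Again neither gene's groups overlapped. *Tek*, the angiopoietin receptor best known from endothelium, stood at 13.8 to 24.4 against 41.0 to 74.2 CPM (log2 -1.40, adjusted p = 0.0216), and was called in 9 of 18 settings. It was the only call among 7 tested endothelial genes outside the rule, of which 6 were negative and 1, *Flt1*, positive, with a median of -0.21. Beside these lists, 0.341% of all genes tested were called lower and 50.3% were positive. *Icam2* was at 0 in every library.

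The wider mural list gave 1 call. Of 28 tested mural genes outside the rule, 0 were called higher and 1 lower, *Mmp9*, with a median log2 difference of -0.12. The shares of all genes tested were 0.37% called higher and 0.341% lower. *Abcc9*, the partner of *Kcnj8* in a pericyte potassium channel, stood at 1043 to 1160.5 CPM on plate 4 and 1083 to 1506 CPM in the wild type (log2 -0.31, adjusted p = 0.305). *Notch3*, *Cspg4* and *Mcam*, a receptor and 2 surface proteins of mural cells, differed by 0.08, 0.06 and 0.07. *Tbx2*, a transcription factor, had 244 to 300.0 against 138 to 226 CPM (log2 0.58, adjusted p = 0.0664), and *Foxf2*, a pericyte transcription factor, 158 to 171 against 154 to 306 CPM (log2 -0.52, adjusted p = 0.130). Basement membrane and matrix genes gave 1 call among 21 tested, *Loxl2*, with a median of 0.04. *Col4a1* and *Col4a2*, the main collagen IV chains, differed by 0.21 and 0.05. Fibroblast genes gave 0 calls among 6 tested (*Col3a1* 0.19, *Col1a2* -0.00), and *Slc6a13* and *Dpt* were at 0 in every library.

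**Figure D5:**
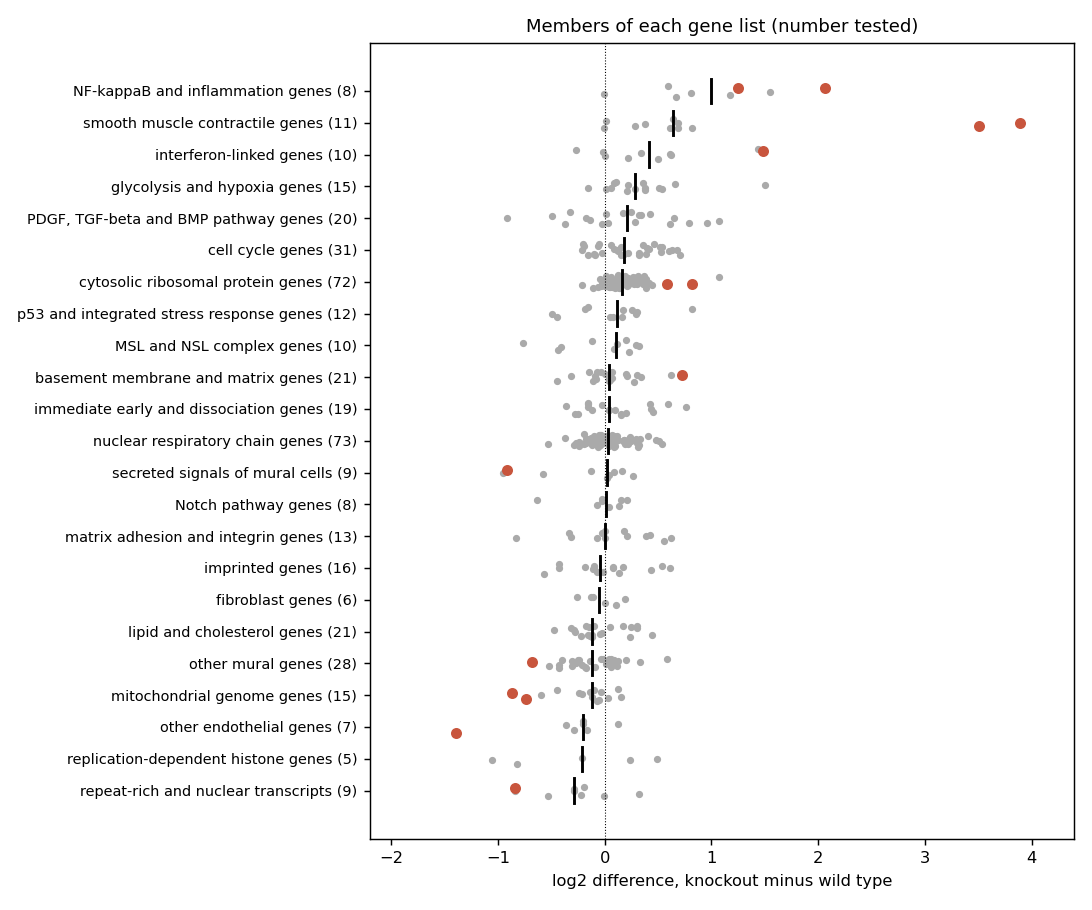
Log2 difference between plate 4 and wild type (horizontal axis) for each tested member of the gene lists, with the number tested in parentheses, called members in red and the list's median as a black bar. The NF-kappaB and contractile lists have the highest medians, 0.99 and 0.64, among the lists drawn, those with at least 5 genes tested.

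Signalling, adhesion and cell cycle lists gave no calls. In the PDGF, TGF-beta and BMP list 20 genes were tested, with 13 positive and a median of 0.21. A positive difference was found for 50.3% of all genes tested. *Tgfb1*, a TGF-beta ligand, had 33.1 to 59.6 CPM on plate 4 and 10.2 to 53.02 CPM in the wild type (log2 1.07, adjusted p = 0.151). *Bmpr2*, a BMP receptor, had 96.7 to 115 against 127 to 161 CPM (log2 -0.49, adjusted p = 0.197). Notch pathway genes (8 tested, median 0.01), integrin and adhesion genes (13 tested, median 0.00) and lipid and cholesterol genes (21 tested, median -0.11) also gave 0 calls. So did 12 p53 and integrated stress response genes (median 0.12), 16 imprinted genes (median -0.04) and 5 replication-dependent histone genes (median -0.21). Of 31 cell cycle genes, 22 were positive, with a median of 0.18. *Mki67*, a marker of cycling cells, had 143 to 314 CPM on plate 4 and 143 to 306 CPM in the wild type. A p that misses the threshold does not show that the groups were alike in these lists.

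Of the 15 mitochondrial genes 2 were called, both lower, with 12 negative, 3 positive and a median log2 difference of -0.12. For all genes tested the shares were 0.341% called lower and 50.3% positive. *mt-Rnr1*, the small mitochondrial ribosomal RNA, stood at 10871, 12030.0, 9024 and 8730.0 CPM on plate 4 and at 20134, 17403, 14383 and 21281 CPM in the wild type (log2 -0.87 ± 0.13, adjusted p = 4.88e-05). In the wells with *Xist* and no Y-linked transcript the groups overlapped, at 6074 to 18407 CPM on plate 4 and 13750 to 21869 CPM in the wild type. *mt-Nd4l*, a complex I subunit, stood at 874 to 1071 against 1195 to 2159 CPM (log2 -0.74, adjusted p = 0.00215). The large ribosomal RNA, *mt-Rnr2*, had a log2 difference of -0.44 (adjusted p = 0.0686), and the messages *mt-Co1* and *mt-Nd1* had differences of -0.03 and 0.13. Of 9 tested genes in the list of repeat-rich and nuclear transcripts, 1 was called, and 8 were negative with a median of -0.29. The called one, *Malat1*, a nuclear non-coding RNA, stood at 3469, 3233, 2263 and 2034 CPM on plate 4 and at 5181, 5209, 5135 and 3913 CPM in the wild type (log2 -0.84 ± 0.14, adjusted p = 1.91e-04). Among the remaining lower genes, *Mllt10*, a cofactor of histone methylation, stood at 52.9 to 69.8 against 93.1 to 150.4 CPM (log2 -1.01, adjusted p = 0.00533), *Ash1l*, a histone methyltransferase, at 75.0 to 94.98 against 117 to 166 CPM (log2 -0.73, adjusted p = 0.0351), and *Smg1*, a kinase of nonsense-mediated decay, at 35.3 to 52.0 against 70.0 to 94.3 CPM (log2 -0.92, adjusted p = 0.0328). DESeq2 kept the call for *Mllt10* (adjusted p = 0.0148) but not for *Ash1l* (0.123) or *Smg1* (0.134). *Akap7*, *Usp34*, *Sepp1*, *Sparcl1* and *Ecm2* were lower too, with log2 differences of -0.93, -0.80, -0.83, -0.52 and -0.82. *Akap7*, *Sepp1* and *Sparcl1* were called in 12, 11 and 8 of 20 settings. Against plate 1 alone none of them was called (adjusted p = 0.103, 0.330 and 0.252), and against plate 2 alone only *Sepp1* was (0.0206). DESeq2 did not call *Usp34* (adjusted p = 0.109) or *Ecm2* (0.134), and against plate 1 alone *Ecm2* had a log2 difference of -0.50 (adjusted p = 0.591).

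The bulk libraries of sorted populations from the same series show where the called genes are normally highest. Of 25 higher genes, 10 had their highest mean normalised count in mural cells, 7 in microglia, 4 in endothelial and 4 in neural cells. Of 22 lower genes with a bulk value, 8 were highest in endothelial cells, 6 in mural, 5 in neural cells and 3 in microglia. Among 6560 tested genes with a bulk value, 33.6% were highest in neural, 27.9% in mural, 21.8% in microglial and 16.7% in endothelial cells. *Acta2* stood at a mean of 818 normalised counts in bulk mural cells and 2.88 to 22.5 in the other populations. *Nfkbia*, by contrast, was higher in bulk endothelial cells and microglia (11768 and 9611) than in mural cells (3986).

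The calls held to differing degrees against each wild-type plate. Of the 48 called genes, 13 passed the test against plate 1 alone and against plate 2 alone, among them *Acta2*, *Tagln*, *Cxcl1*, *Nfkbia*, *Rpl41*, *Ptn*, *mt-Rnr1*, *Malat1* and *mt-Nd4l*. In 42 of the 48 the plate 4 and wild-type libraries did not overlap. The genes were called on these same libraries, so this count is a description and no further support. Of all genes tested, 3.57% had every plate 4 library above every wild-type library and 2.37% below. Beyond plate 4, plate 6 is also labelled *Mof* Knockout and gave 14 mural-picked wells in 4 libraries. They held 244 CPM of *Acta2* (exact 95% interval 149 to 376, from 20 transcripts in 2 wells) and 256 CPM of *Nfkbia* (158 to 391), beside 149 and 417 CPM over all mural wells of plate 4 and 9.48 and 172 CPM over those of plates 1 and 2. *Cxcl1* on plate 6, at 36.5 CPM (7.53 to 107), was near plates 1 and 2 (29.9 CPM) and below plate 4 (125 CPM). *Actn1*, at 122 CPM (58.4 to 224), was likewise near plates 1 and 2 (143 CPM) and below plate 4 (269 CPM). *Bst2* stood at 24.3 CPM on plate 6 and 54.9 CPM on wild-type plate 3, beside 61.2 CPM on plate 4 and 21.1 CPM on plates 1 and 2. *Mmp9* stood at 1186 CPM and *Ptn* at 207 CPM on plate 6. In 10 gated mural wells of wild-type plate 3, *Acta2* had 0 transcripts, *Nfkbia* 151 CPM (75.4 to 270.2), *Cxcl1* 13.7 CPM, *Actn1* 137 CPM and *Ptn* 343.5 CPM. *Mmp9* on wild-type plate 3 stood at 1199.5 CPM (957 to 1473), near plate 4 (1275 CPM) and below plates 1 and 2 (2104 CPM). With so few wells these values stand beside the comparison and are not tested.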

How the data were processed

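Single cells of E14.5 brain were sequenced with mCEL-Seq2 in 23 libraries of 96 wells each, and 12 bulk libraries of sorted populations served as background. The deposited single-cell tables hold expected counts, that is, transcripts estimated from how many of 4096 possible molecular identifiers were seen, with a correction that every value fitted. For the bulk libraries they deposited a signal, reads per gene divided by 1 factor per library. The submitters' processing notes name BWA 0.6.2-r126, STAR, featureCounts, DESeq2 and the build mm10, without their roles.

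Wells over 1500 transcripts (spike-ins left out) were assigned by the marker rule, and wild-type wells had also to be in the PDGFRβ-high gate. No doublet caller was run, since a well holds 1 sorted cell by design. Estimated counts were summed per library, rounded and tested with edgeR 4.0.16 in R 4.3.3 (filterByExpr, TMM, quasi-likelihood, two-sided), with Benjamini-Hochberg adjustment over all 6754 genes tested. A gene was called at an adjusted p under 0.05. SE is the absolute log2 difference over the square root of F. All adjusted p-values in the results come from this test unless another setting is named. The design foresaw 8 wild-type libraries, but the mural gate holds wells of 4, so 4 were compared with 4. *Kat8* was under the filter on low counts and was fitted with it kept in. Single values were tested by exact permutation. Intervals on shares are exact (Clopper-Pearson, 95%), and 3 counts set the limit where none was seen.

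The test was first tested on simulated data. Named genes were *Kat8*, up to 12 called genes per direction with the largest log2 difference among those of at least 50 CPM whose groups did not overlap, the called members of each list (otherwise its 2 highest), and sex-linked and rule genes. Further genes were named after their values were seen. Members and lists were chosen with earlier results of these data known. Alternatives were DESeq2 1.42.0, no filter, total scaling, each wild-type plate alone, a replicate block, sums per plate, other gates and depth minimums, thinning and each library left out. Coordinates are those of GENCODE vM21 (GRCm38). Tables and figures were made with pandas 2.3.3, numpy 2.4.6, matplotlib 3.10.9 and scipy 1.17.1 under Python 3.11.15. Plate 5 and the deposited table of knockout cells were not used here. Some genes are counted but not reported by name here.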

Additional observations from a re-analysis of the deposited data

Results flagged for a closer look

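In 7 of 189 groups of 4 libraries, 1 library lay far from the other 3 by Dixon's criterion, where chance gives about 1 in 20. Library 6 of plate 2 was low among the wild-type libraries for *Malat1* (3913 CPM, next 5135) and *Notch1* (111 CPM, next 153). Library 2 of plate 1 was high for *Gm38227* (57.3 CPM) and low for *Gm9844* (497 CPM), and it holds the fewest wells. *Cldn5* was at 4.73 CPM in library 5 of plate 2 and at 0 in the other wild-type libraries. On plate 4, library 2 was low for *Msl1* (129.5 CPM, next 150.0) and high in its mitochondrial share (14.6%, next 13.05%).

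In wells outside the comparison, the 14 mural-picked wells of knockout plate 6 held *Acta2* at 244 CPM and *Tagln* at 85.2 CPM, above the 9.48 and 6.56 CPM of the wild-type mural wells. The *Acta2* transcripts came from 2 wells, and no test was run.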

How the results depend on the processing

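The main counts were 25 genes higher and 23 lower on plate 4. DESeq2 gave 13 and 14, no filter on low counts 72 and 36, plate 1 alone 10 and 10, and wells thinned to 1500 transcripts 6 and 9. A replicate block on libraries 1 and 2 of plates 4 and 1 gave 14 and 9, the same libraries with no replicate block 2 and 2. The numbers do not pair the samples beyond a shared number: deviations of same-numbered libraries correlated at r = 0.0114 (2 pairs), and the block result is given for completeness. Leaving out each library in turn gave 12 to 30 higher and 10 to 31 lower genes; without library 3 of plate 4 there were 16 and 12, and without library 4 of plate 4 12 and 10. Chosen after seeing the data, wells with *Xist* and no Y-linked transcript gave 2 and 1, and leaving out wells with 5 or more *Acta2* and *Tagln* transcripts gave 16 and 15. Between wild-type plates, the counts of 2 and 0 became 14 higher with no filter, 3 to 32 higher and 0 to 6 lower when a library was left out (without library 1 of plate 1, 32 and 6; without library 2 of plate 1, 1 lower; without library 6 of plate 2, 8 higher). *Lars2* reversed to 0.26 in the replicate block and 0.27 without it, and the difference in transcripts per mural cell reversed to -17.4 against plate 2 alone; the cause was not tested beyond the plate levels given above. Of the 48 called genes, 47 kept their sign in every setting that fitted them, 27 were called by DESeq2 and 15 in all 8 leave-one-out fits. For a gene called in neither of 2 settings, direction was not compared. Depth limits genes of few transcripts: *Kat8* rests on 33 and 21 transcripts, and its log2 difference ranged from -0.45 to 0.45 over the settings.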
